A study of Saccharomyces cerevisiae with 24 samples.

Results

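The genes described here are 10 genes of lower glycolysis and alcoholic fermentation in Saccharomyces cerevisiae: FBA1, TPI1, TDH2, TDH3, PGK1, GPM1, ENO2 and CDC19 for glycolysis, and PDC1 and ADH1 for fermentation. They were chosen by name, with no threshold on a value, but with earlier results of these data known. Every deposited region or peak that overlapped one of their open reading frames (ORFs), or the 500 bp upstream of a start codon, by at least 1 bp was counted as theirs. These were 13 of 1711 regions in the authors' region table, 41 of 1940 MACS2 peaks and 57 of 1041 CisGenome peaks. MACS2 peaks are listed per library and CisGenome peaks per group and setting, so the same place can be counted more than once. All 10 genes had at least 1 region, and TDH2, TDH3 and FBA1 had 2 each. The share of all genes with a region is not given here, so this count cannot be set against it.

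The assay was chromatin immunoprecipitation with sequencing (ChIP-seq) of Yrr1, a zinc cluster transcription factor known for activating drug efflux genes such as SNQ2. All strains were strain S96 with its own YRR1 deleted (yrr1Δ), carrying 1 of 3 Myc-tagged YRR1 alleles: YRR1_YJM789, YRR1_S96, or YRR1_S96-I775E, the S96 allele with 1 amino acid change. Each was grown for 2.5 h in rich medium (YPD), either alone or with 0.25 µg/ml of 4-nitroquinoline 1-oxide (4NQO), a compound that damages DNA. This gave 6 groups of 3 ChIP libraries (18 in all) and 1 input library per group (6 in all). The labels call the libraries triplicate cultures in 1 place and speak of 2 replicate cultures in another. The limma p-values below set a difference between group means against the spread of libraries within groups, estimated over all 6 groups. Part of that spread may be technical. Each strain is labelled only by its allele, libraries of an untagged strain were not analysed here, and total read numbers are not stated in the files or labels used.

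Glycolysis turns glucose into pyruvate, and in yeast growing on glucose most pyruvate goes on through acetaldehyde to ethanol. In this state the enzymes of the lower pathway are among the most abundant proteins of the cell, and their genes are among the most strongly transcribed by RNA polymerase II. Their promoters are textbook targets of the activators Rap1 and Gcr1. They are not among the drug resistance genes for which Yrr1 is known.

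The sequences at which ChIP signal was strongest are shown first, since they tell where in a gene the signal lay and what letters stood there. They were read from the R64 genome (sacCer3), on the strand of the named gene, as 101 bp centred on the point given. The first pair shows reference sites, centred on the median strongest point over the 18 libraries. Among the 4 reference windows SNQ2 held 0 matches to the element described next, IRT1 1, SNG1 1 and YRR1 2, and the pair was picked because it holds one. Capitals mark matches on either strand to the known Yrr1 element, which reads A or T, then CCG, then C or T, G, G or T, and 2 bases that are A or T. IRT1 is a noncoding RNA gene upstream of the meiosis regulator IME1, and SNG1 is a drug resistance gene.
IRT1, chrX:607302-607402, minus strand: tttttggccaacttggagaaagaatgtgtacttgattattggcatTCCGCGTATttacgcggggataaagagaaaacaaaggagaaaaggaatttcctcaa
SNG1, chrVII:894416-894516, minus strand: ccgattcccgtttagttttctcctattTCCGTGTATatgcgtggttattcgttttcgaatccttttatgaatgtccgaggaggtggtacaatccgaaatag
The next pair shows the ORF positions under the MACS2 summits of highest fold at PDC1 and ADH1, where no match was present and so no capitals appear.
PDC1, chrXII:233659-233759, minus strand: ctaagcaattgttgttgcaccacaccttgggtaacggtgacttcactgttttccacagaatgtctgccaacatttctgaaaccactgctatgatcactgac
ADH1, chrXV:160395-160495, minus strand: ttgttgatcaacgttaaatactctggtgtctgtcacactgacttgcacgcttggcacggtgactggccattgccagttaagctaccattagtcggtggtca
No match to the Yrr1 element was found within 500 bp upstream of any of the 10 genes, against 322 of 6000 genes with a full window (5.37%). Of the 71 windows of 101 bp around their ChIP summits 1 held a match, against 51 of 2270 windows around all such summits (2.25%). The Gcr1 motif CTTCC, on either strand, was within 500 bp upstream of 8 of the 10 genes and of 66.1% of all genes, and the Rap1 motif ACACCCA of 0 of 10 and 4.33%. A match in a window is a description of its letters and not a site, and a count of 0 does not mean that a site is absent. For Rap1 only the exact letters ACACCCA were searched, on either strand, so sites with other letters were not counted.

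At these genes most MACS2 summits with ChIP above input lay in the gene body. Peaks lying only downstream of a gene were not counted as its own. The strongest points in the region table lay outside the ORF in some groups, as described below. Of the 71 MACS2 summits with ChIP above input at the 10 genes, 69 fell inside the ORF, 1 fell at -4 bp, just before the start codon of ADH1, and 1 fell past the stop codon of CDC19. The ORFs, at 744 to 1692 bp, were longer than the 500 bp upstream, and the share of summits inside ORFs over all genes is not given here. Most of the 71 came from YJM789 4NQO libraries 1 and 2, which share 1 input, and a peak can hold several summits. These summits are therefore not independent. The folds of ChIP over input, which are the authors' own values, ranged from 1.47 to 2.28 with a median of 1.76. The summits did not gather at 1 place. At PDC1 they fell from 212 to 1568 bp from the start codon of an ORF of 1692 bp, and at ENO2 from 120 to 1150 bp of 1314 bp. The strongest point of each region table entry moved as widely: over the 18 libraries it spanned 604 bp at TPI1 to 2195 bp at PGK1. At the reference sites it spanned 53 bp at IRT1, 55 bp at SNQ2, 171 bp at SNG1 and 406 bp at YRR1. A span cannot exceed its region, which was 607 bp long at TPI1 and 2238 bp at PGK1.

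**Figure D1:**
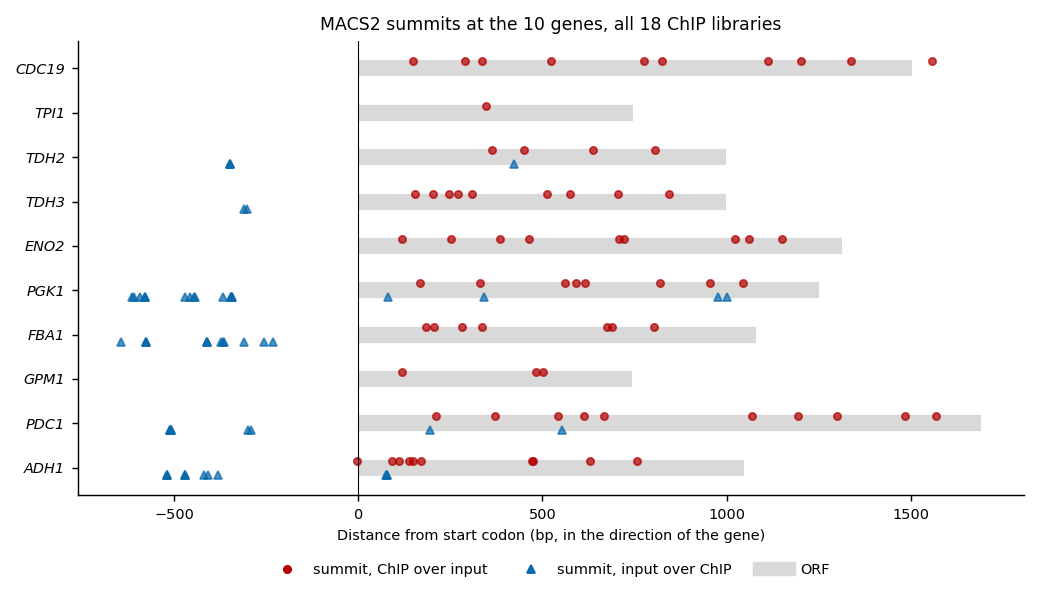
MACS2 summits at the 10 genes, pooled over the 18 ChIP libraries, as distance from the start codon in bp in the direction of the gene. Several libraries had no summit with ChIP above input at these genes. Grey bars are ORFs, circles are summits with ChIP above input (69 of 71 inside the ORF) and triangles are summits with input above ChIP (51 of 61 upstream).

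Peaks with ChIP above input were found at all 10 genes, mainly in YJM789 4NQO. In that group a peak recurred in at least 2 of 3 libraries at 9 of 10 genes (all but TPI1), against 5.53% of all 6002 nuclear protein-coding genes. The first library had a peak at all 10, the second at 9 and the third at 0. These libraries also differed over the whole genome, with 518, 422 and 30 peaks. Without the first or the second library the count of 9 became 0, since the third had none. S96 4NQO had 2 genes with a peak in at least 2 libraries, PDC1 and ADH1 (0.933% of all genes). This count was 6 under the authors' other parameter set (m2) and 0 without S96 4NQO library 2 or 3. S96-I775E 4NQO had 1, ADH1 (0.5% of all genes), and 0 without S96-I775E 4NQO library 1 or 2. The 3 YPD groups had 0 (0.1%, 1% and 0.716% of all genes for YJM789, S96 and S96-I775E).

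Single libraries added to this pattern. In S96-I775E YPD the second library alone had peaks, at 5 genes (CDC19, TDH3, ENO2, FBA1 and ADH1), and in S96 YPD the third alone, at CDC19. Peaks in those libraries were also many over the genome, with 113 peaks in the first case and 181 in the second. ADH1, the main alcohol dehydrogenase making ethanol, had a peak in 7 of 18 libraries, CDC19 in 5, and TPI1 in 1. With a fold of at least 2 asked for, YJM789 4NQO kept 3 genes with a peak in at least 2 libraries: PDC1, TDH3 and ADH1. The next count took only peaks that reach the 500 bp upstream by at least 1 bp, again in at least 2 libraries. S96-I775E 4NQO had 1 such gene, ADH1, and the other 5 groups had 0.

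CisGenome, a second peak caller that the authors ran per group under 4 settings, listed peaks at 7 of the 10 genes, against 6.03% of all genes. According to the authors' deposited table these were 25 peaks in YJM789 4NQO, 23 in S96-I775E 4NQO, 5 in S96-I775E YPD and 4 in S96 4NQO, out of 282, 250, 98 and 275 peaks in all. These counts add the lists of all 4 settings, so the same place can be counted more than once and the peaks are not independent. The listed peaks covered 6, 7, 2 and 1 of the 10 genes, against 2.23%, 1.85%, 0.95% and 2.22% of all genes. The point of highest statistic lay inside the ORF in 57 of 57. The log2 fold of ChIP over input in the authors' deposited table ran from 0.75 to 1.68. The false discovery rate in the authors' deposited table was 1 for 51 of 57 and at lowest 0.827. TPI1, FBA1 and GPM1 had none.

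The region table gives a value per library. Its rise is the ChIP-minus-input coverage at the strongest point of a region less the mean of the surroundings, in coverage units. Over the 10 ORF regions and 18 libraries (180 values) the rise ran from 14.5 to 110, with a median of 45.4. The reference sites had medians of 188 at SNQ2 (150 to 273), 229 at IRT1 (94.4 to 365), 71.5 at SNG1 (36.7 to 140) and 46.2 at YRR1 (18.8 to 145). The median of the 10 genes was thus lowest, but their range overlapped that of every reference site except SNQ2. By mean over the libraries, ADH1 (62.6), PDC1 (60.0), FBA1 (58.5) and PGK1 (58.3) came first. CDC19 (46.5), TDH3 (43.7), ENO2 (39.4), TDH2 (38.3), TPI1 (34.8) and GPM1 (34.7) followed. Neighbours in this order did not differ beyond the spread of their libraries, and the rise is a height at a point, so it does not add up over gene length.

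**Figure D2:**
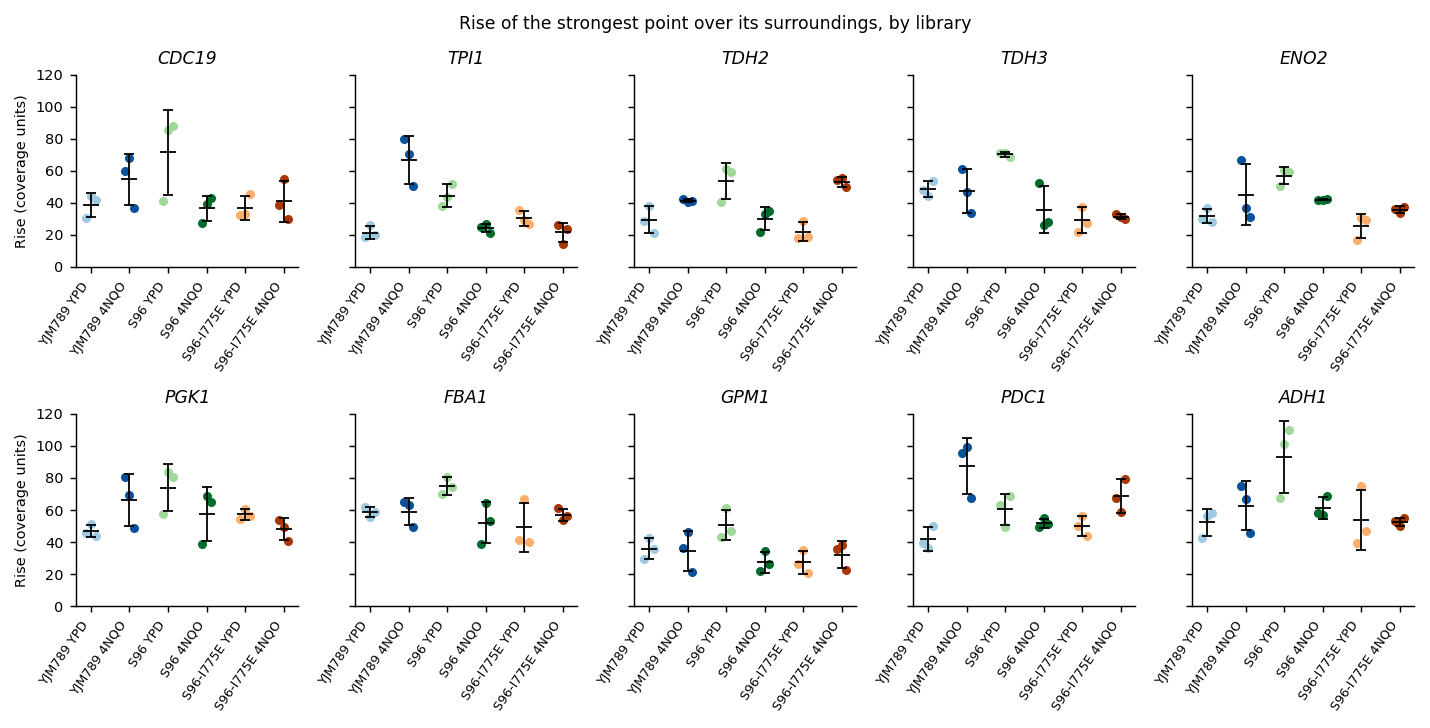
Rise of the strongest point over its surroundings in coverage units for the 10 ORF regions, with 1 point per library and the mean and SD of 3 libraries per group. The S96 YPD libraries of TDH3 (68.6 to 71.4) lie above those of all other groups, and the YJM789 4NQO libraries of TPI1 (50.3 to 79.5) and PDC1 (67.7 to 99.6) lie above the YJM789 YPD libraries.

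Of the 13 regions, 11 had enough values for the test: the 10 ORF regions and 1 region that touches the last 6 bp of FBA1 and lies mainly downstream of it. The regions upstream of TDH2 and TDH3 had 5 and 8 values of 18 and were not tested. Their values were 28.8 to 40.7 upstream of TDH2 and 28.7 to 55.2 upstream of TDH3. The regions over CDC19, TDH3, ENO2, PGK1, GPM1, PDC1 and ADH1 cover the whole ORF, and those of TPI1, TDH2 and FBA1 cover 81.3%, 98.6% and 94.5% of it.

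With the YJM789 allele the rise was higher in 4NQO than in YPD at TPI1 and PDC1. TPI1, whose enzyme interconverts the triose phosphates, had rises of 18.6, 26.1 and 19.6 in YPD and 79.5, 70.3 and 50.3 in 4NQO. The groups did not overlap, and the means were 21.4 ± 4.06 and 66.7 ± 14.9 (SD, n = 3), a log2 difference of 1.58 (SE 0.30, limma adjusted p = 0.00113). PDC1, the main pyruvate decarboxylase, had 39.2, 36.3 and 50.2 in YPD and 95.6, 99.6 and 67.7 in 4NQO. Here too the groups stood apart, with a log2 difference of 1.04 (SE 0.23, limma adjusted p = 0.00447). These were 2 of 11 tested regions called higher, against 6.15% of all 1350 tested regions, and 3 of 11 had groups that did not overlap, against 21% of all. The median log2 difference was 0.46 over the 11 regions and 0.25 over all regions.

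TDH2 rose with 4NQO in the strain with S96-I775E. This gene encodes 1 of the glyceraldehyde-3-phosphate dehydrogenases. Its rises were 18.2, 28.9 and 18.9 in YPD and 54.4, 55.6 and 49.7 in 4NQO. The log2 difference was 1.27 (SE 0.29, limma adjusted p = 0.0168), and this was 1 of 11 regions called higher, against 1.93% of all. The call was lost under m2, with empty entries as 0, and on leaving out S96-I775E YPD library 1 or 3, or S96-I775E 4NQO library 1 or 2.

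In S96 none of the 11 regions passed for 4NQO against YPD by limma, against 2.59% of all regions, with 7 at an unadjusted p under 0.05. All 11 log2 differences were negative, with a median of -0.57 against -0.13 over all regions. TDH3, whose gene encodes the main glyceraldehyde-3-phosphate dehydrogenase, came closest, with 71.0, 71.4 and 68.6 in YPD and 52.4, 26.4 and 28.3 in 4NQO (log2 difference -1.03, SE 0.29, limma adjusted p = 0.0517).

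The response to 4NQO itself differed between alleles at 3 genes. For YJM789 minus S96 it was larger by 2.42 log2 units at TPI1 (SE 0.42, limma adjusted p = 0.00177) and by 1.24 at PDC1 (SE 0.32, adjusted p = 0.0283), 2 of 11 against 3.56% of all regions. For S96-I775E minus S96 it was larger by 2.09 at TDH2 (SE 0.41, limma adjusted p = 0.00713), 1 of 11 against 1.93%. Both differences share the S96 libraries. The calls at TPI1 and TDH2 were lost under m2, and that at PDC1 under m2, with library medians set equal, and without any 1 of 6 libraries.

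**Figure D3:**
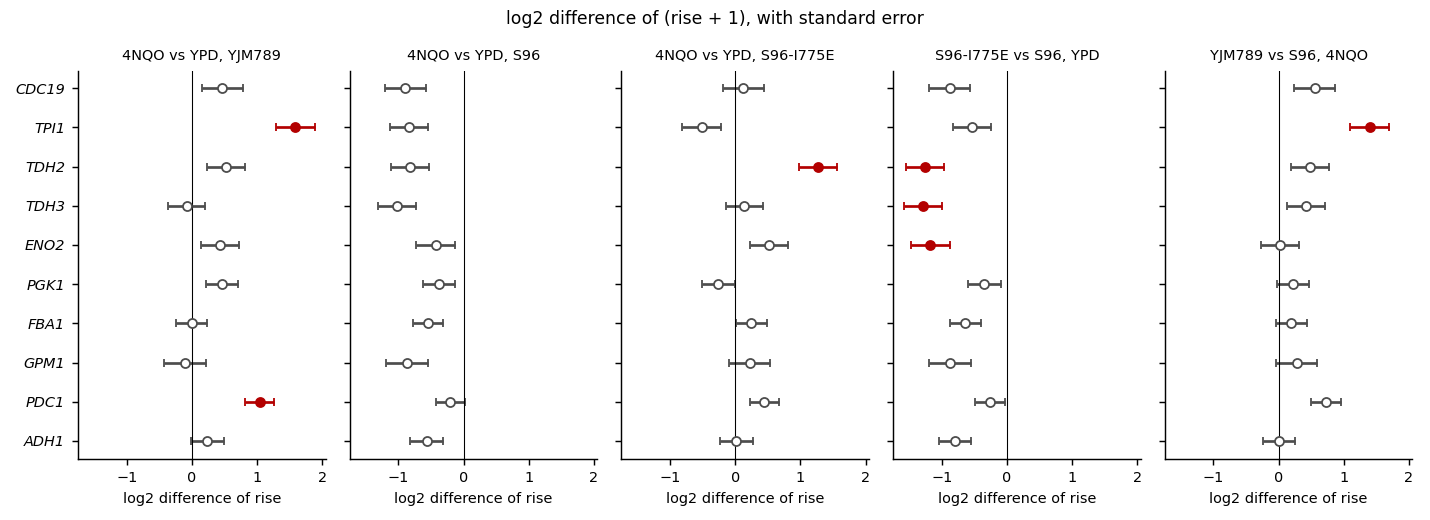
log2 difference of rise + 1 between 2 groups for the 10 ORF regions, in 5 comparisons, with the standard error from limma. Filled points passed an adjusted p of 0.05: TPI1 and PDC1 for 4NQO in YJM789, TDH2 for 4NQO in S96-I775E, TDH2, TDH3 and ENO2 for S96-I775E against S96 in YPD, and TPI1 for YJM789 against S96 in 4NQO.

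Between alleles in YPD, TDH3, TDH2 and ENO2 had lower rises with S96-I775E than with S96. TDH3 had 71.0, 71.4 and 68.6 with S96 and 21.7, 37.7 and 27.6 with S96-I775E, a log2 difference of -1.29 (SE 0.29, limma adjusted p = 0.00768). TDH2 had 40.7, 60.9 and 59.2 with S96 and 18.2, 28.9 and 18.9 with S96-I775E (-1.26, SE 0.29, limma adjusted p = 0.00937). ENO2, encoding the main enolase on glucose, had 50.7, 60.7 and 59.5 against 16.7, 30.3 and 29.3 (-1.17, SE 0.29, limma adjusted p = 0.0162). In none of the 3 did the groups overlap, which held for 6 of 11 regions in this direction and for 24.4% of all. The TDH2 call was lost under m2 and without S96 YPD library 2, and the ENO2 call without S96 YPD library 2 or S96-I775E YPD library 1.

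These were 3 of 11 regions called lower, against 4.96% of all regions. Without the second S96 YPD library the count was 1, without the first it was 5, and without the second S96-I775E YPD library it was 5. ADH1 had 67.4, 101 and 110 with S96 and 39.3, 75.1 and 47.2 with S96-I775E, and its groups overlapped (-0.80, SE 0.25, limma adjusted p = 0.0504). For YJM789 against S96 in YPD none of 11 passed by limma, against 2.07% of all regions, with 8 at an unadjusted p under 0.05. Both YPD comparisons and the 4NQO comparison in S96 use the same 3 S96 YPD libraries, and all 11 log2 differences from those libraries were negative in each.

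In 4NQO, TPI1 was higher with YJM789 than with either other allele. Its rises were 25.2, 26.6 and 21.4 with S96 and 26.1, 14.5 and 23.9 with S96-I775E, all below the YJM789 values above. Against S96 the log2 difference was 1.40 (SE 0.30, limma adjusted p = 0.00598), 1 of 11 called higher against 3.04% of all regions. S96-I775E against YJM789 gave -1.61 (SE 0.30, limma adjusted p = 0.00302), 1 of 11 called lower, against 3.19%. Under m2 neither of these calls held. None of the 11 passed by limma for S96-I775E against S96 in 4NQO or against YJM789 in YPD (1.85% and 2.15% of all regions), with 1 at an unadjusted p under 0.05 in each.

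The rise is a difference of a pair of terms, and both moved at these genes. At the strongest point, ChIP-minus-input coverage of the 10 ORF regions was higher with 4NQO than without it in YJM789 for all 10. For ENO2 it was 33.1, 27.9 and 28.6 in YPD and 106, 85.2 and 61.8 in 4NQO. PDC1 had 30.5, 14.8 and 33.5 in YPD and 113, 120 and 64.9 in 4NQO, a difference of 73.1 coverage units (SE 10.5, limma adjusted p = 3.31e-07). The groups did not overlap at any of the 10 genes, and they stood apart in this direction at 50% of all tested regions.

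This measure moved over much of the genome. Of all 1350 tested regions 50.9% were higher in the same comparison, with a median difference of 19.8 coverage units against 40.0 over the 11 regions. With the library medians set equal, 5 of the 11 were called higher: TDH3, ENO2, TDH2, PDC1 and ADH1. The share of all regions called under equal medians is not given here, so this count cannot be set against it. The same holds for the other counts under equal medians below. In S96 and in S96-I775E, 0 of 11 regions were higher at the strongest point with 4NQO (26.1% and 2.07% of all regions). The third YJM789 4NQO library, the one with no peak at these genes, was lowest of its group at each of the 10 genes.

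For YJM789 against S96 in 4NQO the strongest point was higher at TDH3, ENO2, TDH2 and PDC1, 4 of 11 against 26.9% of all regions. That count was 2 without the first or second YJM789 4NQO library and 10 without the third, and with library medians set equal it was 2 higher (TDH2 and PDC1) and 1 lower. The 4NQO response at the strongest point was larger in YJM789 than in S96 at the same 4 genes, against 7.56% of all regions. With library medians set equal this too was 2, TDH2 and PDC1, and leaving out 1 library gave 2 to 10. S96-I775E against YJM789 in 4NQO gave 3 lower regions (TPI1, TDH3 and PDC1; 13.2% of all), and with library medians set equal 0. For PDC1 the difference in response was 61.3 coverage units (SE 14.9, limma adjusted p = 0.00620).

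The lower rises with S96-I775E in YPD lay in the term for the surroundings. At the strongest point TDH3 had 57.4, 55.5 and 62.3 with S96 and 45.4, 69.0 and 50.3 with S96-I775E. ENO2 had 43.1, 53.7 and 47.8 against 45.1, 66.8 and 60.0, and TDH2 had 30.6, 32.6 and 46.3 against 35.1, 55.2 and 39.0. The groups overlapped at all 3 genes, and none of the 10 ORF regions passed at the strongest point. The region downstream of FBA1 was lower there (1 of 11 against 7.7% of all regions), as it was with 4NQO in S96 (1 of 11 against 7.56%). The surroundings of ENO2 were -7.63, -6.96 and -11.7 with S96 and 28.4, 36.5 and 30.7 with S96-I775E, a difference of 40.6 (SE 6.11, limma adjusted p = 9.82e-06).

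A value below 0 means that input coverage exceeded ChIP coverage. The surroundings were higher with S96-I775E at 10 of 11 regions, and lower at the region downstream of FBA1, against 50.3% higher and 11.1% lower of all regions. They were also higher with 4NQO in S96 at 10 of 11 regions (41.9% of all) and lower downstream of FBA1 (10.1% of all), and in YJM789 at 9 of 11 (45.9% of all). With library medians set equal these counts were smaller: 5 higher with S96-I775E (TDH3, ENO2, TDH2, FBA1 and ADH1), 2 higher with 4NQO in S96 (TDH3 and ADH1), and 5 higher and 2 lower with 4NQO in YJM789. The median difference over all regions was 16.5, 12.2 and 14.3 coverage units in the 3 comparisons. The surroundings also differed for S96-I775E against YJM789 in YPD, where no rise passed. There the median difference was 20.4 coverage units over the 11 regions and 9.80 over all regions. For YJM789 against S96 in 4NQO these medians were 11.7 and 6.97.

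The response of the surroundings to 4NQO was lower in S96-I775E than in S96 at 6 of 11 regions (23.5% of all regions), and at 0 with library medians set equal. For YJM789 minus S96 it was lower at 1, TPI1 (1.41% of all regions).

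**Figure D4:**
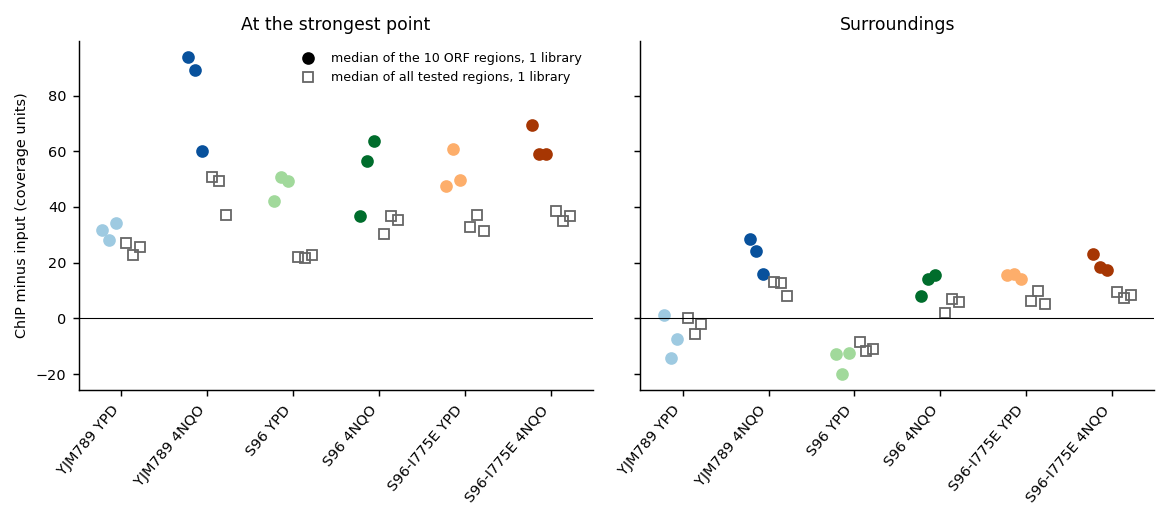
ChIP-minus-input coverage in coverage units at the strongest point (left) and in the surroundings (right). Each filled circle is the median of the 10 ORF regions in 1 library and each open square the median of all 1350 tested regions in the same library. The surroundings of the 10 ORF regions had medians below 0 in all 3 S96 YPD libraries, and the strongest points had medians of 94.0, 89.3 and 60.3 in YJM789 4NQO.

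The place of the strongest point moved with the group. In the 7 genes whose ORF is wholly inside its region, the strongest point lay outside the ORF in 21 of 21 library values in S96 YPD. Of these, 19 were downstream of the stop codon, by 24 to 420 bp, and 2 were upstream of the start codon. At ENO2 it lay 84, 74 and 97 bp past the stop codon. In YJM789 4NQO it lay outside the ORF in 1 of 21, at GPM1. The other groups had 12 of 21 (YJM789 YPD), 7 of 21 (S96 4NQO), 5 of 21 (S96-I775E YPD) and 4 of 21 (S96-I775E 4NQO).

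Other ORFs wholly inside a region of their own (186 genes) showed a difference in the same direction. Their strongest point was outside the ORF in 68.6% of values in S96 YPD and in 32.2% in YJM789 4NQO. The regions of TPI1, TDH2 and FBA1 end within the ORF, and in S96 YPD their strongest points lay within 59 bp of a region edge. In YJM789 YPD the strongest point of TPI1 lay 2 bp from a region edge in libraries 1 and 2, and 237 bp in library 3. The choice of 1 point per region and library thus set different parts of a gene beside each other between groups.

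**Figure D5:**
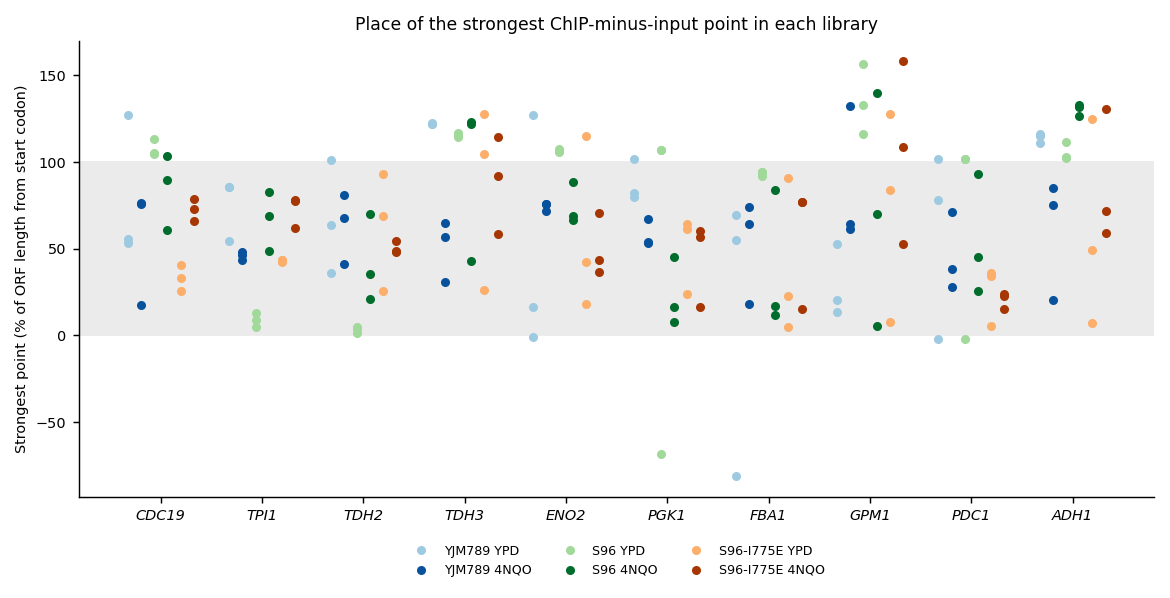
Place of the strongest ChIP-minus-input point in each of the 18 libraries, as percent of ORF length from the start codon, with the ORF shaded. For CDC19, TDH3, ENO2, PGK1, GPM1, PDC1 and ADH1, S96 YPD points lie outside the shaded ORF in 21 of 21 values and YJM789 4NQO points inside it in 20 of 21.

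The reverse comparison, input above ChIP, had its summits at the other end of these genes. Of 61 such MACS2 summits at the 10 genes 51 were upstream of the start codon, from -644 to -232 bp with a median of -444 bp, and 10 were in ORFs. They belonged to 6 genes: PGK1, FBA1, PDC1, ADH1, TDH2 and TDH3. CDC19, TPI1, ENO2 and GPM1 had none. The authors' folds of input over ChIP ran from 1.48 to 2.16, the highest at ADH1 in S96 YPD, at -471 bp, where the 3 libraries had 2.16, 2.16 and 2.12. The libraries of a group share 1 input, so their summits are not independent.

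In S96 YPD 5 of the 10 genes had such a peak in at least 2 libraries (7.35% of all genes), and in YJM789 YPD 3 (2% of all genes). The counts were 2 in YJM789 4NQO (0.333%), 2 in S96 4NQO (0.566%), 1 in S96-I775E YPD (0.167%) and 2 in S96-I775E 4NQO (0.183%). PDC1 had it at -509 bp in all 3 S96-I775E 4NQO libraries. The 10 summits inside ORFs were all in S96 YPD, at ADH1, PDC1, PGK1 and TDH2. Around the upstream summits of highest fold, the window of PGK1 held 3 copies of CTTCC, that of TDH2 held 1, and those of TDH3, FBA1, PDC1 and ADH1 held 0. The PGK1 window, at -445 bp, is shown as the richest of the 6, with the copies in capitals.
PGK1 upstream, chrIII:137251-137351, plus strand: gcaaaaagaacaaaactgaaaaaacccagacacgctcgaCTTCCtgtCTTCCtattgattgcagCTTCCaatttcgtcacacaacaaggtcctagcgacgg

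TDH2 and TDH3 need a caution of their own. Their ORFs have the same length, 999 bp, and were identical at 957 positions (95.8%) without gaps, with a longest identical run of 173 bp. The sources used here do not say how reads that match both were placed, so part of the signal at either may come from the other. The stretch around the strongest TDH3 summit shows how few bases tell them apart, with capitals where the genes differ.
TDH3, chrVII:883489-883589, minus strand: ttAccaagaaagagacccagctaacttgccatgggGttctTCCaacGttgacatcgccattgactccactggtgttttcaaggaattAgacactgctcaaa
TDH2, chrX:454360-454460, minus strand: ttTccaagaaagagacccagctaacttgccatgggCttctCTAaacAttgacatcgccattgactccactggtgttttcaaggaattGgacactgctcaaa
Even so, their rises were not alike in every group. In S96-I775E 4NQO TDH2 had 54.4, 55.6 and 49.7 and TDH3 had 32.7, 31.2 and 30.0.

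Of 42 other genes of glycolysis, gluconeogenesis, fermentation, glycerol and acetate metabolism, hexose transport and glycolytic regulation, 22 had a region in the table, with no share of all genes to set beside it. These were HXK2, PGI1, PFK2, TDH1, ENO1, ADH2, ADH3, ADH5, ADH6, GPD1, GPD2, GPP1, GPP2, PYC2, ALD6, ACS1, HXT1, HXT3, HXT5, GCR2, RAP1 and TYE7. Their 22 tested regions had at most 3 calls in any comparison. For 4NQO in YJM789, 2 were higher (PFK2, a phosphofructokinase subunit, and GPP1, a glycerol phosphatase), and for S96-I775E against S96 in YPD 2 were lower (GPD2 and TYE7). The response to 4NQO was larger in YJM789 than in S96 at PFK2, GPP1 and ALD6, against 3.56% of all regions. Of the 42 genes PGI1, TDH1, GPP1 and HXT3 had a MACS2 peak in at least 2 YJM789 4NQO libraries, against 5.53% of all genes.

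The 10 ORF regions varied together only in part. Over the 18 libraries the Pearson correlation of log2 rise between pairs of them ran from 0.14 to 0.81, with a median of 0.56 over 45 pairs. All values of a library share its depth and its group's input. Outside the 10 genes, the regions most correlated with their mean over the 18 libraries, among 940 with a value in each, were those over RPL4A (r = 0.87), TEF2 and MUD1 (0.86), TAE1 (0.85), RPL8A (0.84) and PAT1 (0.84). RPL4A and RPL8A encode ribosomal proteins and TEF2 a translation elongation factor.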

How the data were processed

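ChIP and input libraries were processed by the authors. Tools named in the submitters' processing notes, without roles or order, are MACS2 2.1.0, Bowtie2 2.2.3 and CASAVA 1.7, and the build named is sacCer3. Per the file headers, the MACS2 lists give for each library the peak, its fold enrichment (a ratio), pileup (a coverage signal) and −log10 q, with ChIP over input or input over ChIP, under 2 parameter sets, mn (used here) and m2. Per the file headers, CisGenome peaks are deposited per group with a log2 fold change, a maximum T score, a −log10 p and a false discovery rate (a q-value type of p-value). The region table deposited by the authors gives the rise (a coverage signal) and its terms, signed coverage scores at the strongest point and in the surroundings. The rise equalled their difference to within 9.9e-13. The coverage scaling between libraries is not stated in the files, and 29 further value columns were not used.

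log2(rise + 1) was fitted with limma 3.58.1 (R 4.3.3; trended variance) over all 18 ChIP libraries with 6 group terms, keeping the 1350 of 1711 regions in which every group had 2 values or more, and p-values were adjusted over all tested regions (Benjamini-Hochberg) in each of 11 comparisons, with a threshold of 0.05. A fold change on this scale understates that of low regions. The fit was tested on simulated data. No 2 libraries held identical values. Genes came from the RefSeq annotation of R64. All 10 genes are described, with other pathway genes that own a region, 4 reference Yrr1 sites and the 5 regions most correlated with the 10 genes. The genes and lists were chosen with earlier results of these data known. The fits on the terms of the rise were added after seeing the data.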

Additional observations from a re-analysis of the deposited data

Results flagged for a closer look

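The response to 4NQO differed between alleles at 3 of the 10 genes by the test of the difference itself. At TPI1 it was larger in YJM789 than in S96 by 2.42 log2 units of rise (SE 0.42, limma adjusted p = 0.00177). All 3 YJM789 libraries in 4NQO (50.3 to 79.5) lay above the 3 in YPD (18.6 to 26.1), while all 3 S96 libraries in 4NQO (21.4 to 26.6) lay below those in YPD (38.0 to 51.8). At the strongest point alone TPI1 did not pass for this difference, and its surroundings did, by -35.8 coverage units (SE 8.94, limma adjusted p = 0.0210). It was the 1 of 11 regions lower there, and the count was 0 without S96 YPD library 1 or S96 4NQO library 2.

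At PDC1 the response was larger in YJM789 than in S96 by 1.24 (SE 0.32, limma adjusted p = 0.0283), and the strongest point alone passed too, by 61.3 coverage units. At TDH2 the response was larger in S96-I775E than in S96 by 2.09 (SE 0.41, limma adjusted p = 0.00713). The 3 S96-I775E libraries went from 18.2, 28.9 and 18.9 to 54.4, 55.6 and 49.7, and the 3 S96 libraries from 40.7, 60.9 and 59.2 to 21.8, 33.3 and 35.1. At the strongest point alone TDH2 did not pass for this difference. The surroundings are subtracted in the rise, so a lower value there makes the rise larger. At TDH2 the response of the surroundings differed by -33.0 coverage units (SE 10.6, limma adjusted p = 0.0246). This was 1 of 6 regions of 11 that were lower, with a median of -24.3 against -12.2 over all regions, and with library medians set equal none of the 11 was.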

How the results depend on the processing

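Alternatives for the rise were library medians set equal, the m2 set, empty entries as 0, a pseudocount of 10, values in all 18 libraries, a replicate block, and leaving out each library. No named log2 difference turned its direction under any of them. Under the m2 set the calls for YJM789 against S96 in 4NQO, S96-I775E against YJM789 in 4NQO, 4NQO in S96-I775E and the response of S96-I775E minus S96 each went from 1 to 0. With empty entries as 0, the counts were 1 for YJM789 against S96 in YPD, 1 for 4NQO in S96 and 0 for 4NQO in S96-I775E. A pseudocount of 10 gave 1 for 4NQO in S96, as did values in all 18 libraries. Equal medians gave 1 for the response of YJM789 minus S96. The cause was not tested. Leaving out 1 library at a time, the counts of called regions ran from 0 to 2 for YJM789 against S96 in YPD, 1 to 2 in 4NQO, 1 to 5 for S96-I775E against S96 in YPD, 0 to 1 for 4NQO in S96, 0 to 1 for 4NQO in S96-I775E and 1 to 4 for the response of YJM789 minus S96. The response at PDC1 was called in 12 of 18 such fits and that at TPI1 in 18 of 18.

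The labels do not say whether libraries with the same number share a culture. Deviations of same-numbered libraries correlated at -0.0655 to 0.0703 over regions. Each S96 library and YJM789 libraries 2 and 3 correlated best with their own number, and YJM789 library 1 and the S96-I775E libraries did not. Values this near 0 cannot tell whether the libraries were paired. With the replicate block the counts were the same as without it, for example 3 for S96-I775E against S96 in YPD and 2 for 4NQO in YJM789.

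For MACS2 peaks in at least 2 libraries, a fold of at least 2 left 3 genes in YJM789 4NQO, 0 in S96 4NQO and 0 in S96-I775E 4NQO. The 500 bp upstream alone left 0 in YJM789 4NQO and 0 in S96 4NQO. The m2 set gave 6 in S96 4NQO and 1 in S96-I775E YPD. Leaving out 1 library gave 0 to 9 genes in YJM789 4NQO, 0 to 2 in S96 4NQO and 0 to 1 in S96-I775E 4NQO.

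For coverage at the strongest point, equal medians gave 5 called regions for 4NQO in YJM789 and 0 for S96-I775E against YJM789 in 4NQO. Leaving out 1 library gave 8 to 10 called regions for 4NQO in YJM789, 0 to 1 for 4NQO in S96, 0 to 1 for 4NQO in S96-I775E, 2 to 10 for YJM789 against S96 in 4NQO, 0 to 1 for S96-I775E against S96 in YPD and 0 to 6 for S96-I775E against YJM789 in 4NQO. Equal medians gave 2 regions for the response of YJM789 minus S96 at the strongest point. In the surroundings they gave 5 higher for S96-I775E against S96 in YPD, 2 for 4NQO in S96, 5 for 4NQO in YJM789, and 0 lower for the response of S96-I775E minus S96. Leaving out 1 library gave 2 to 10 for the response of YJM789 minus S96 at the strongest point. In the surroundings it gave 9 to 10, 9 to 10, 8 to 9 and 1 to 8, in the order of the comparisons just listed. There the response of YJM789 minus S96 had 0 to 1 lower. Read depth is not given, so no limit of detection was set.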
